A study of Arabidopsis thaliana with 15 samples.

Results

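Roots of the Arabidopsis thaliana line P35S:rGRF3 were compared with roots of the wild type Col-0, with 3 arrays for each, out of 15 arrays in the series. P35S:rGRF3 carries a transgene for a form of the transcription factor GRF3 that the microRNA miR396 cannot target, driven by the 35S promoter of cauliflower mosaic virus, which is active in most plant tissues. Its labels give the ecotype WS. The other sets of 3 arrays each were used to place it: P35S:rGRF1 (labelled Col-0, with miR396-resistant GRF1 under the same promoter), the triple mutant grf1/grf2/grf3 (labelled with both ecotypes) and the wild type WS. All plants were 2 weeks old and had grown on modified Knop's medium at 23 °C with 16 h of light and 8 h of dark. The labels give neither the number of independent transgenic lines nor the number of plants behind an array, and do not state that the replicates were grown apart. The tests therefore rest on the scatter among these arrays, which may be technical, and their small number limits the precision. Members of the comparison were the 6 arrays named by their titles, read over the 22746 probe sets that are not array controls.

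Growth-regulating factors are plant transcription factors that act with GIF coactivators and are known for promoting cell proliferation in leaves and for their part in the root meristem. miR396 binds the transcripts of most members of the family, lowers their level and is known to restrict where they act in the root tip. A resistant form under a general promoter escapes that control. The array annotation used here names none of the growth-regulating factors, their coactivators or miR396, so the transgene itself was not analysed here and the label could not be checked against it.

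The 6 arrays were alike in overall signal, since the medians of their log2 values spanned 0.0669. Correlations between arrays of the same group ran from 0.967 to 0.978 in P35S:rGRF3 and from 0.954 to 0.981 in Col-0. Replicate 3 of P35S:rGRF3 stood apart in the 24 probe sets for poly-A control RNA, which averaged 9.02, 8.78 and 6.96 on the log2 scale in P35S:rGRF3 against 8.01, 8.89 and 8.89 in Col-0. The 25S ribosomal RNA control read 12.09, 11.997 and 10.96 in P35S:rGRF3 and 11.83, 12.29 and 12.51 in Col-0. Of 60 markers of root and other cell types, 4 were named on the array. The root hair expansin EXPA7 read 9.78, 10.12 and 9.74 in P35S:rGRF3 and 9.90, 9.57 and 10.002 in Col-0. Over both groups the leaf genes LHCB4.1 and RCA read 9.33 to 10.41 and 9.39 to 10.27, and neither was called different. The tissue could therefore be checked against these 4 genes only.

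The ecotype label of the line was set against the data first. At 321 probe sets the wild types were called different, without overlap between their arrays, and differed at least 4-fold. Each line was placed at these probe sets on a scale on which Col-0 is 0 and WS is 1. P35S:rGRF3 lay nearer to Col-0 at 293 of them (91.3%), with a median position of 0.08. P35S:rGRF1, labelled Col-0, lay nearer to Col-0 at 287 (89.4%), and the triple mutant at 56 (17.4%), with a median of 0.84. On chromosome 1 the line was nearer to WS at 0 of 46 probe sets with a named gene, and on chromosome 2 at 4 of 29. The line thus lay nearer to Col-0 than to WS, its label, at most of these probe sets, and Col-0 is the wild type used below. Of the 321 probe sets, 101 (31.5%) were called in P35S:rGRF3 against Col-0, against 11.9% of all probe sets tested. The 321 were chosen with the same Col-0 arrays, which can itself raise the share called. The shares are therefore not directly comparable. The WS arrays also stood apart in the hybridization controls, which read 10.85 to 11.20 in WS and 9.68 to 10.003 in Col-0. These controls read 9.69 to 10.33 in P35S:rGRF3, 10.07 to 10.18 in P35S:rGRF1 and 10.72 to 10.81 in the triple mutant. The mutant thus lay near WS and both P35S lines near Col-0 in these controls too. Ecotype and array set therefore cannot be told apart, for WS or for the positions above.

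**Figure D1:**
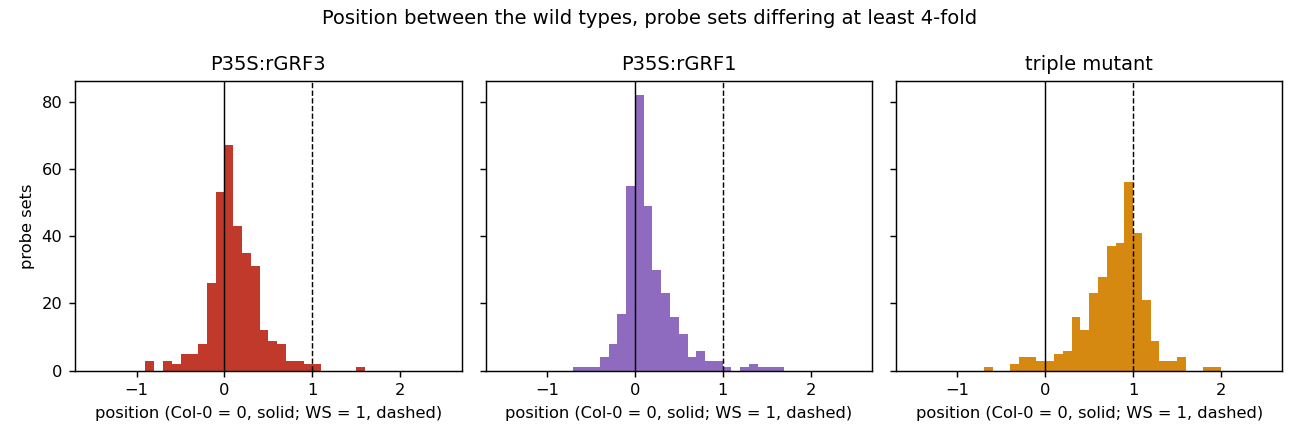
Number of probe sets (vertical axis) by position between the wild types (horizontal axis, Col-0 = 0, WS = 1) for P35S:rGRF3, P35S:rGRF1 and the triple mutant, over 321 probe sets. These were called between the wild types, without overlap between their arrays, and differed at least 4-fold. The median was 0.08 in P35S:rGRF3 and 0.84 in the triple mutant.

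Among 13648 probe sets bright enough to test, 1626 (11.9%) differed between P35S:rGRF3 and Col-0 at an adjusted p under 0.05 in limma, 724 of them higher (5.3%) and 902 lower (6.61%) in the line. The median difference over all probe sets tested was -0.02 on the log2 scale. Changes of at least 2-fold were found at 138 higher and 212 lower probe sets, and of at least 4-fold at 16 and 28 of those tested. Only 9 of those 16 and 7 of those 28 had 1 gene name in the annotation, so several of the largest changes are not named here. Arrays of the groups did not overlap at 1550 called probe sets (11.4% of those tested). In bulk roots a lower level in every cell and fewer cells of one type cannot be told apart. The counts depended on single arrays: 1069 were called without replicate 1 of P35S:rGRF3 and 973 without replicate 2 of Col-0. When each array was centred on its median, 907 were higher and 742 lower, so the split between directions turns with the scaling. With only these 6 arrays in the fit 621 were called, and with no filter on dim probe sets 1431 of 22746 (6.29%).

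**Figure D2:**
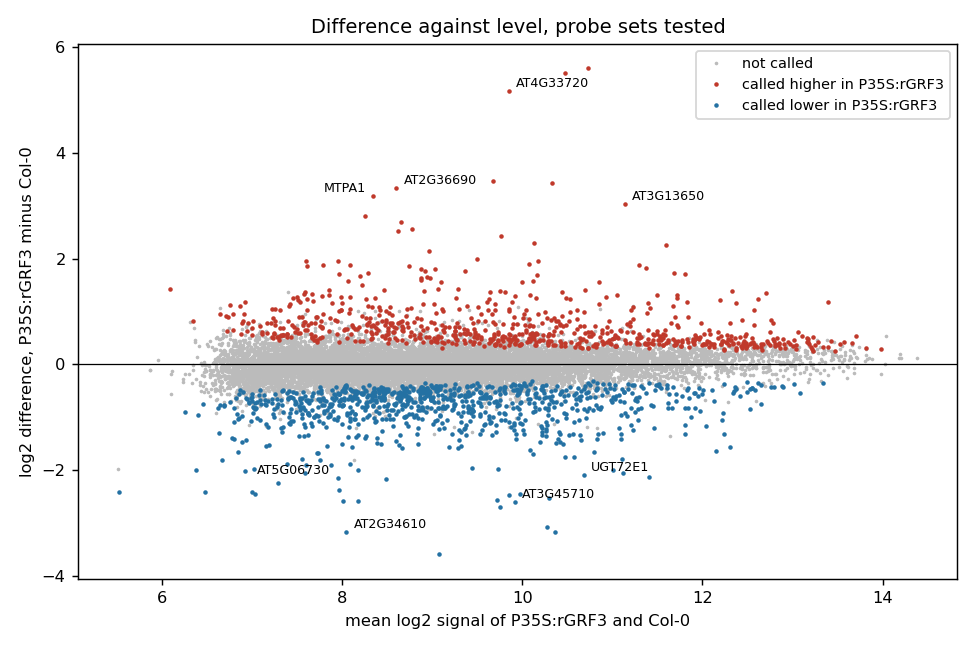
Log2 difference, P35S:rGRF3 minus Col-0 (vertical axis), against the mean log2 signal of both groups (horizontal axis), 1 point per probe set tested. Called probe sets are red where higher (724) and blue where lower (902), and the named points are leading genes with 1 gene name.

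Among the probe sets that passed the filter, the largest named increase was in AT4G33720, a secreted protein of the PR1 (pathogenesis-related 1) or CAP family, and a dirigent protein was also among the leading genes. AT4G33720 read 12.14, 12.70 and 12.46 on the log2 scale in P35S:rGRF3 against 8.38, 7.34 and 6.06 in Col-0. All arrays of the line lay far above all arrays of Col-0, a difference of 5.17 ± 0.50 (SE; 36.0-fold; adjusted p = 5.43e-06 in limma). AT3G13650, a dirigent protein (a class that guides the coupling of phenolic radicals), read 12.54, 12.88 and 12.55 in the line and 9.67, 9.43 and 9.76 in Col-0, a difference of 3.04 ± 0.17 (8.22-fold). Of 22 tested members of the pathogenesis-related, defensin and thionin list, 6 were higher and 2 lower, where 5.11% of all named genes tested were higher and 6.07% lower. The same shares are the background for each list count below. Members higher in this list included the defensin PDF2.5 (0.53) and the CAP genes AT4G30320 (0.73) and AT5G66590 (0.63). The chitinase gene CHI was lower by a difference of -1.36 (but 3.18 above WS), and AT2G19970 by -0.67. AT2G43600 of the same list was higher by 1.33, but was not called without replicate 1 of the line (adjusted p = 0.0652). AT4G07820, a further PR1-family gene, averaged 12.2 in the line and 10.3 in Col-0, where replicate 1 read 8.49 and the others 11.33 and 11.23. Its difference of 1.89 (adjusted p = 0.0276) was 0.95 without that Col-0 array, and it was not called without replicate 1 (adjusted p = 0.052) or replicate 3 (0.103) of the line. The dirigent list had 2 of 8 members higher and 0 lower. Over the 6 fits that leave out 1 array, 3 to 7 of the pathogenesis-related list were higher, with 3 without replicate 1 of the line and 3 without replicate 2 of Col-0.

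**Figure D3:**
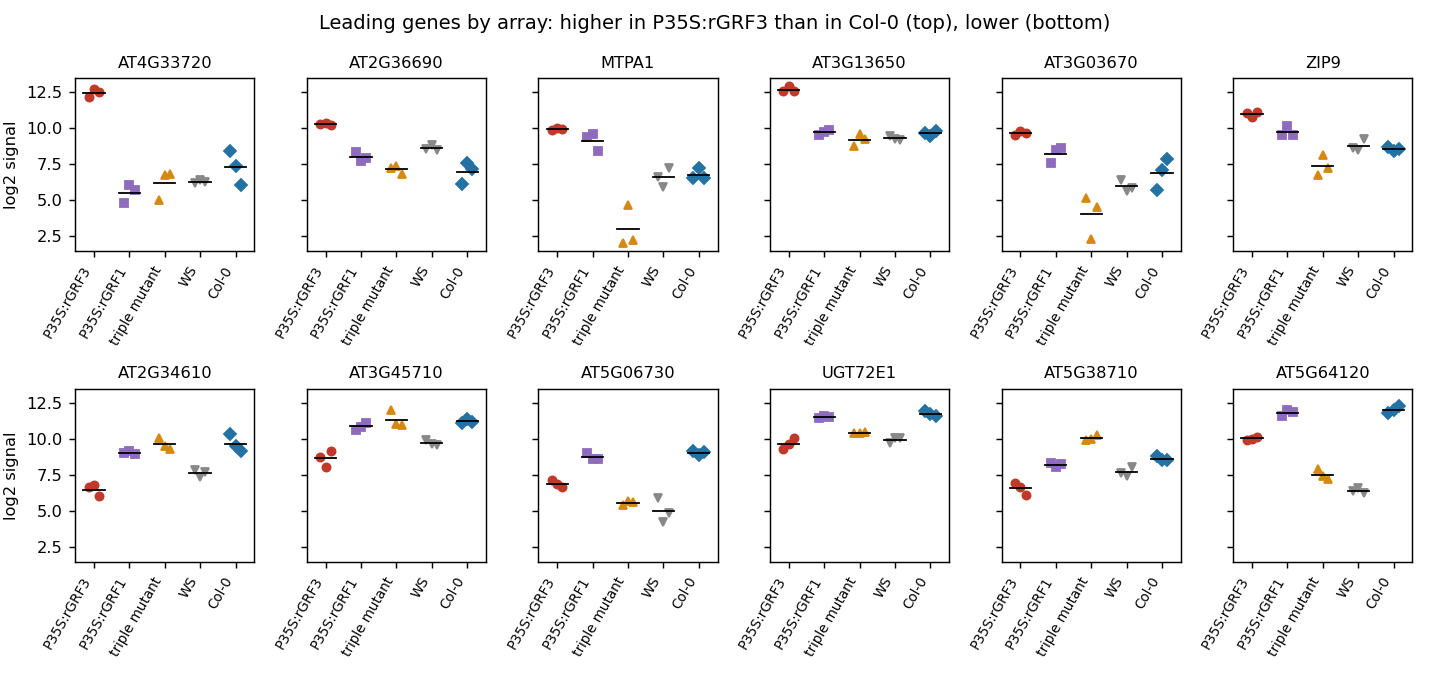
Log2 signal (vertical axis) of the 6 named genes, among those that passed the filter, with the largest increase (top) and decrease (bottom) in P35S:rGRF3 against Col-0, in all 5 sets of arrays, with 1 point per array and a line at the mean of 3. The genes were chosen among those with no overlap, so the 3 arrays of P35S:rGRF3 lie above all Col-0 arrays (top) or below them (bottom) by the choice.

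The filter used the mean over all 15 arrays, so it also removed probe sets that were bright in 1 group only. With no filter, 163 of the 9098 probe sets below the filter level (6.84) were called, 94 higher and 69 lower, of which 57 and 35 changed at least 4-fold. In 90 of the 163 the higher group averaged at or above the filter level, and these hold 29 of the 57 and 19 of the 35. At the rest of the 163 both groups were dim, with no detection call, so the sizes of their differences are uncertain. The genes named here were chosen after their values were seen. PRX52, a class III peroxidase, read 9.87, 10.11 and 10.35 in P35S:rGRF3 and 4.83, 3.12 and 4.29 in Col-0, the largest difference of any named gene called (6.03, adjusted p = 3.03e-05 in limma with no filter). In the other groups PRX52 read at most 5.59. AT4G12490, of a lipid transfer protein family, read 9.50, 9.80 and 9.70 in the line and 4.70, 5.62 and 5.75 in Col-0 (4.31, adjusted p = 3.39e-07). ICL, isocitrate lyase of the glyoxylate cycle, read 9.76, 10.99 and 10.96 in the line and 6.89, 6.15 and 5.88 in Col-0 (4.26, adjusted p = 0.000215). No array of Col-0 reached the line at these 3 genes, and each was also called higher against WS. AT5G43450, of the dioxygenase family that uses 2-oxoglutarate, read 3.58, 5.55 and 1.69 in the line and 7.71, 7.84 and 7.83 in Col-0 (-4.19, adjusted p = 0.000334). All 4 genes were called in each of the 6 fits that left out 1 array. The low group has no detection call, so the sizes of these 4 differences are uncertain.

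Further leading genes came from families with varied roles. AT1G11540, of the sulfite exporter family, read 11.10, 11.40 and 11.33 in P35S:rGRF3 and 9.11, 9.12 and 8.70 in Col-0 (2.30, adjusted p = 2.57e-06), without overlap. AT1G20380, of the prolyl oligopeptidase family, read 10.92, 10.90 and 11.25 in the line and 9.16, 9.08 and 9.14 in Col-0 (1.90). AT5G54530 (1.95), AT4G37295 (1.85) and AT5G41280 (1.796), the last a DUF26 secreted protein, were also higher. Among the lower genes, AT5G51160, an ankyrin repeat protein, read 6.62, 6.57 and 6.75 in the line and 8.77, 8.43 and 8.45 in Col-0 (-1.90, adjusted p = 2.87e-07). AT3G04010, of a glycosyl hydrolase family, read 9.09, 9.60 and 9.11 in the line and 10.85, 11.07 and 10.98 in Col-0 (-1.70). No array of the line reached Col-0 at these genes. AT3G54150 (-1.88), of a methyltransferase family, AT2G29340 (-1.90), a short-chain dehydrogenase, AT3G22060 (-1.81), a DUF26 secreted protein, and AT1G72900 (-1.68), a TIR-domain protein, were lower too. AT3G54150 was 2.27 above WS, the other direction, where wild type and array set cannot be told apart.

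In the lists of pectin and xyloglucan enzymes, which modify wall polysaccharides, each member called was higher in the line. Of 16 tested pectin enzymes, 4 were higher and 0 lower, with a list median of 0.30. All 4 are pectin methylesterases, which remove methyl groups from wall pectin. AT2G19150 read 8.77, 8.80 and 8.87 in P35S:rGRF3 against 6.99, 6.80 and 7.55 in Col-0, a difference of 1.70 with adjusted p = 1.72e-05. PMEPCRF read 10.57, 10.94 and 10.82 in the line and 9.49, 9.16 and 8.99 in Col-0 (1.56, adjusted p = 9.86e-06). The arrays of the groups did not overlap for either gene. AT2G47550 (1.37) and AT5G51490 (0.95) were the other two. Of 8 xyloglucan endotransglucosylases, which cut and rejoin wall xyloglucan, XTH18 (1.04) and XTH19 (0.72) were higher and none lower, and XTH19 was not called without replicate 1 of the line (adjusted p = 0.0741) or replicate 2 of Col-0 (0.0513). Of 12 expansins, which loosen walls, and of 13 cellulose synthases and cellulases, 0 were called in limma in either direction, with 3 and 2 at an unadjusted p under 0.05. EXPB3, the brightest expansin, read 12.30, 12.19 and 12.02 in the line and 12.38, 12.12 and 11.90 in Col-0. Of 22 subtilases and carboxypeptidases 4 were higher and 1 lower, among them SBT3.5 (0.81). A member of the extensin and proline-rich list, AT1G26250, was called (1.16, adjusted p = 0.0465) although the groups overlapped. It was not called without replicate 2 or 3 of the line or replicate 1 or 2 of Col-0, with adjusted p of 0.0613 to 0.173.

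Class III peroxidases, secreted haem enzymes that act on phenolics and hydrogen peroxide in the wall, moved both ways. Of 55 named, 39 passed the filter, of which 4 were higher and 6 lower, with a median of 0.11. PRX52, which did not pass it, was higher by 6.03 with no filter, as given above. AT3G03670 read 9.50, 9.79 and 9.65 in P35S:rGRF3 and 5.68, 7.04 and 7.82 in Col-0 (2.80, adjusted p = 0.00476). Its Col-0 arrays spread widely but none reached the line. In the other direction, AT5G64120 read 9.92, 9.98 and 10.11 in the line against 11.78, 12.01 and 12.24 in Col-0, a difference of -2.01 with adjusted p = 1.43e-06. AT5G06730 was lower by a difference of -2.15, at 7.12, 6.84 and 6.67 in the line and 9.14, 8.87 and 9.05 in Col-0. Both read higher in the line than in WS, by 3.61 for AT5G64120 and 1.92 for AT5G06730. The WS arrays also form another array set, so wild type and array set cannot be told apart in this change of direction. The count of lower members was 9 without replicate 1 of Col-0 and 4 without replicate 1 of the line or replicate 2 of Col-0. The genes UGT72E1 and UGT72E2, which attach glucose to monolignols (the precursors of lignin), were lower. UGT72E1 read 9.25, 9.64 and 10.01 in the line and 11.93, 11.67 and 11.58 in Col-0 (-2.09, adjusted p = 4.84e-07), and UGT72E2 read 11.54, 11.79 and 11.41 in the line and 13.30, 12.79 and 12.60 in Col-0 (-1.31).

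Transporters of metals, nitrate and sugars included several of the leading genes. MTPA1, a metal transporter of the cation diffusion facilitator family, read 9.85, 10.01 and 9.95 in P35S:rGRF3 against 6.51, 7.19 and 6.55 in Col-0, a difference of 3.19 ± 0.53 (9.11-fold, adjusted p = 0.000804). ZIP9, of the zinc and iron transporter family, read 11.05, 10.74 and 11.13 in the line and 8.70, 8.40 and 8.55 in Col-0 (2.42, adjusted p = 2.23e-05). No array of Col-0 reached the line at either gene, and they were the 2 of 8 metal transport genes called, with 0 lower. NRT2.5, a high-affinity nitrate transporter, read 12.59, 13.10 and 12.48 in the line and 11.56, 10.56 and 9.31 in Col-0 (2.25, adjusted p = 0.00253). Its Col-0 arrays spread more widely than those of the line. Of 10 nitrate genes 2 were lower, AT3G21670 (-1.38, not called without replicate 3 of the line, adjusted p = 0.0511), a member of the NPF nitrate and peptide transporter family, and AT1G59740 (-0.66). AT1G59740 was not called without replicate 1 or 2 of the line or replicate 1 or 2 of Col-0 (adjusted p of 0.0591 to 0.129). AT3G45710, also of the NPF family, was lower by a difference of -2.60, at 8.69, 8.02 and 9.14 in the line and 11.11, 11.38 and 11.17 in Col-0. Among 10 sugar transport genes, SWEET11, a sucrose transporter, was higher (1.32), and SWEET16, a vacuolar sugar transporter, was lower (-1.06). Organic cation transporter genes OCT1 (-1.82) and OCT5 (-0.62) were lower.

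Lists of detoxification and secondary metabolism held several lower genes, foremost the MATE carriers. Of 17 tested ABC and MATE transporters, 7 were lower and 0 higher, with a median of -0.45, and all 7 belong to the MATE family of efflux carriers. AT5G65380 read 9.60, 9.18 and 9.61 in P35S:rGRF3 against 10.81, 11.02 and 10.95 in Col-0 (-1.46, adjusted p = 8.54e-06). AT3G21690 read 9.34, 9.42 and 9.31 in the line and 10.74, 10.59 and 10.71 in Col-0 (-1.32, adjusted p = 9.14e-07), again without overlap. From 7 to 9 members were lower in each fit that left out 1 array. Of 28 UDP-glycosyltransferases, which attach sugars to small molecules, 6 were lower and 3 higher, including UGT76D1 (-1.36) and UGT73B5 (-1.04) below and UGT84A4 (0.82) above Col-0. Of 9 cytochrome P450s, 3 were lower and 2 higher. CYP71B6 read 10.14, 10.39 and 10.09 in the line and 11.79, 11.72 and 12.49 in Col-0 (-1.79). CYP78A9, of a family that promotes organ growth, was higher (adjusted p = 0.00404). Of 12 glutathione transferases, 3 were lower, with GSTU21 at -1.43, and 1 was higher, ATGSTF13 (0.75), which was not called without replicate 2 of Col-0 (adjusted p = 0.0631).

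Lists added after values were seen are given as description. Of 30 dioxygenases that use 2-oxoglutarate and iron, 7 were lower (4 without replicate 1 of the line) and 1 was higher. The one higher was AT2G36690, at 10.29, 10.36 and 10.16 in P35S:rGRF3 and 6.12, 7.55 and 7.12 in Col-0 (3.34, adjusted p = 9.14e-07). AT5G59530 was lower by a difference of -1.98, at 8.42, 8.98 and 8.82 in the line and 10.94, 10.57 and 10.66 in Col-0. Of 29 C1-domain proteins, which carry cysteine- and histidine-rich zinc-binding domains, 8 were higher (5 without replicate 2 of the line or replicate 1 of Col-0) and 1 lower, led by AT2G17740, which read 10.09, 10.11 and 9.90 in the line and 8.22, 7.52 and 7.93 in Col-0. AT5G43520 of this list was called (1.08, adjusted p = 0.0466) but not in any fit without an array of the line, and its difference was 0.59 without replicate 1 of Col-0. Of 12 berberine bridge enzyme-like oxidases, 3 were lower and 0 higher, but 1 was lower without replicate 2 of the line and 0 without replicate 3 of Col-0.

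Receptors and signalling genes formed a further group. Of 21 receptor-like kinases, 6 were lower and 2 higher, with a median of -0.30. AT1G74360 read 6.94, 6.87 and 6.82 in P35S:rGRF3 against 8.62, 8.37 and 8.68 in Col-0 (-1.68, adjusted p = 3.17e-06). AT1G05700 read 9.91, 9.67 and 9.83 in the line and 8.02, 8.03 and 8.04 in Col-0 (1.77, adjusted p = 1.17e-05). THE1, a sensor of wall integrity, differed by 0.43. Of 18 TIR-domain and NB-LRR resistance genes, 3 were lower and 1 higher. Over all named genes tested, 6.07% were lower and 5.11% higher, so the 1 higher is near that share. CLE44, which encodes a peptide that acts in vascular tissue, read 10.03, 9.46 and 9.58 in the line and 8.17, 8.27 and 7.72 in Col-0 (1.64, adjusted p = 0.000115). Auxin genes had 2 of 6 members lower, GH3.17 (-1.30), which conjugates auxin to an amino acid, and the repressor IAA18 (-0.63). GID1C, a gibberellin receptor, was called (-0.74) with overlapping arrays, and was not called without replicate 1 of the line or replicate 2 or 3 of Col-0 (adjusted p of 0.12 to 0.13). The ubiquitin ligase PUB24 was lower (-0.97).

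Cytosolic ribosomal proteins were higher by small amounts: 44 of 115 were called higher and 0 lower, with a median of 0.31, and 114 of the 115 differences were positive. AT2G19730 read 13.69, 13.16 and 13.28 in P35S:rGRF3 and 12.89, 12.79 and 12.82 in Col-0 (0.54, adjusted p = 0.00415). AT3G53890 read 12.84, 12.32 and 12.52 in the line and 12.04, 12.02 and 11.93 in Col-0 (0.56). In both, replicate 1 of the line was the highest of the 6. Leaving that array out brought the count to 13 members, leaving out replicate 2 or 3 of Col-0 brought it to 21 or 23, and 0 were called when only the 6 arrays compared entered the fit. TOPII, a DNA topoisomerase that acts in dividing cells, was the 1 of 4 cell cycle genes called, at 8.07, 7.88 and 7.96 in the line and 6.96, 7.25 and 6.99 in Col-0 (0.90, adjusted p = 0.000151). Of 42 plastid-encoded genes 1 was called lower, psbZ (-0.61), which is 2.38%, where 6.07% of all named genes tested were lower. The list median was -0.22, and 7 members were lower without replicate 1 of Col-0. psbZ itself was not called without replicate 1 of the line (adjusted p = 0.0566) or replicate 2 of Col-0 (0.0631), and the count was 0 without the first of these arrays. The photosynthesis list had 2 of 11 lower, PGRL1B (-0.94) and LHCB4.3 (-0.73), the second not called without replicate 1 of the line (adjusted p = 0.0925) or replicate 1 of Col-0 (0.0713). The proline dehydrogenase gene AT5G38710, for the first step of proline breakdown, was lower by a difference of -2.05, at 6.91, 6.66 and 6.10 in the line and 8.81, 8.48 and 8.53 in Col-0. Lists with 0 members called in limma in either direction were WRKY (6 tested), bHLH (13), jasmonate (3), ethylene (3) and abscisic acid (5). The histone (4 tested), sulfate and glucosinolate (10) and root hair (3) lists also had 0. With so few members, 0 called does not show that these functions were unchanged. At an unadjusted p under 0.05 there were 2 abscisic acid, 2 glucosinolate, 1 WRKY and 1 bHLH member, and 0 in the others.

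**Figure D4:**
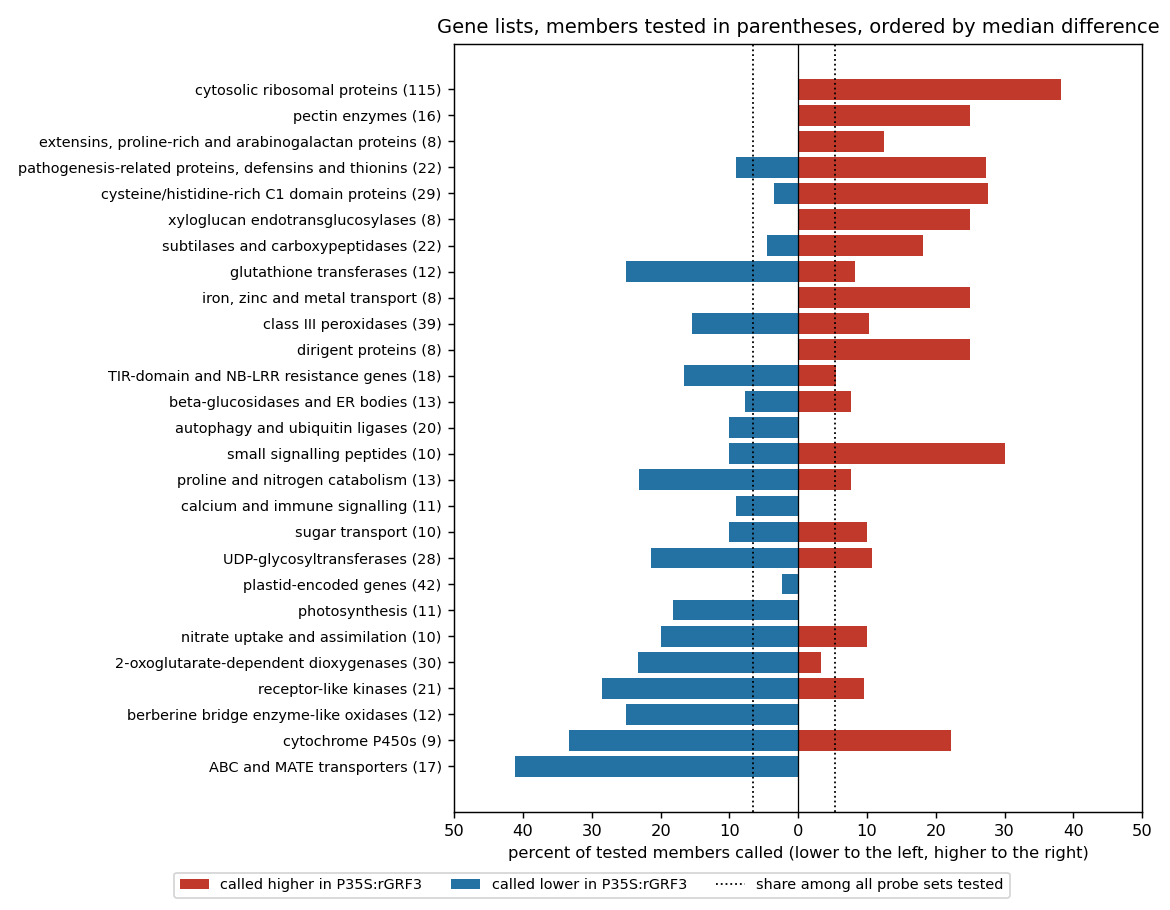
Percent of tested members called higher (red, to the right) and lower (blue, to the left) in P35S:rGRF3 against Col-0, for gene lists with at least 8 members tested and at least 1 called, with the number tested in parentheses. Dotted lines mark the shares over all probe sets tested, 5.3% higher and 6.61% lower, and 7 of 17 ABC and MATE transporters were lower while 44 of 115 ribosomal proteins were higher.

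Against WS, P35S:rGRF3 differed at 7147 probe sets (52.4%), 2643 higher (19.4%) and 4504 lower (33%), and the array set and the wild type cannot be told apart there. Against both wild types, 350 probe sets (2.56%) were higher and 461 (3.38%) were lower in the line, while 257 moved the other way against WS and 558 were not called there. The lower count was 305 without replicate 1 of the line and 286 without replicate 2 of Col-0. AT4G33720 was 6.18 above WS and AT3G13650 was 3.39 above it. AT3G56080, of a methyltransferase family, read 5.46, 4.65 and 2.80 in the line, 8.69, 8.53 and 8.60 in WS and 6.62, 6.92 and 6.63 in Col-0, with differences of -4.30 against WS and -2.42 against Col-0. The arrays of the line lay below all wild-type arrays at this gene. They also lay below the filter level of 6.84 and carry no detection call here, so the sizes of these differences are uncertain.

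P35S:rGRF3 was also set directly against P35S:rGRF1, and the lines differed at 2891 probe sets (21.2%), 1178 higher (8.63%) and 1713 lower (12.6%) in P35S:rGRF3. Adjusting for the level of the poly-A controls left 1330 called (574 higher, 756 lower). With each array centred on its median the split was 1802 higher and 1054 lower, and 1672 were called without replicate 1 of P35S:rGRF1. Without its replicate 3, 1084 were lower. In the same direction as against Col-0 lay 365 higher (2.67%) and 518 lower (3.8%), which share the arrays of the line with the first comparison. NRT2.5 read 5.24, 4.48 and 5.02 in P35S:rGRF1, below the 12.48 to 13.10 of P35S:rGRF3, a difference of 7.81. Relative to Col-0, NRT2.5 differed by 2.25 in P35S:rGRF3 and by -5.56 in P35S:rGRF1. The P35S:rGRF1 arrays lay below the filter level of 6.84 and carry no detection call here, so the direction was tested but the size of these 2 differences is uncertain. AT3G13650 differed from Col-0 by 3.04 in P35S:rGRF3 and by 0.08 in P35S:rGRF1. AT2G34610 read 6.62, 6.75 and 6.004 in P35S:rGRF3 and 10.29, 9.49 and 9.11 in Col-0, and differed from Col-0 by -3.17 in P35S:rGRF3 and by -0.61 in P35S:rGRF1. The last pairs of differences share the Col-0 arrays.

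The triple mutant, which lacks 3 of these factors, was compared with WS, and the means of these groups rest on arrays that the P35S:rGRF3 comparison did not use. All 15 arrays share 1 estimate of the spread for each probe set, however, so the lists of calls are not independent. It differed at 1900 probe sets (13.9%), 1007 higher (7.38%) and 893 lower (6.54%), but at 1158 without replicate 3 of WS, 1259 without its replicate 1 and 1197 without replicate 2 of the mutant. Of the probe sets higher in P35S:rGRF3, 142 were lower in the mutant (19.6% of the line's list, 15.9% of the mutant's, and 1.04% of all tested), and of those lower in the line 241 were higher in the mutant (26.7%, 23.9% and 1.77%). In the same direction moved 65 higher (8.98% of the line's list, 6.45% of the mutant's) and 32 lower (3.55% and 3.58%). Over all probe sets tested, 7.38% were higher and 6.54% lower in the mutant. MTPA1 differed by 3.19 in P35S:rGRF3 against Col-0 and by -3.60 in the mutant against WS, ZIP9 by 2.42 and -1.43, AT5G38710 by -2.05 and 2.34, and AT3G21670 by -1.38 and 3.16. Leaving out replicate 3 of WS brought the first of these overlaps to 75, and Col-0 arrays moved them too: without replicate 1 of Col-0 the opposite overlaps were 116 and 191 and the same-direction overlaps 106 and 164, with 2253 called in the mutant. Without it and without replicate 3 of P35S:rGRF3, a choice made after seeing the data, they were 125, 198, 131 and 252. Opposite calls outnumbered same-direction calls without replicate 1 of Col-0 (307 against 270), but not without both arrays (323 against 383). With array weights the counts were 178, 251, 97 and 121.

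**Figure D5:**
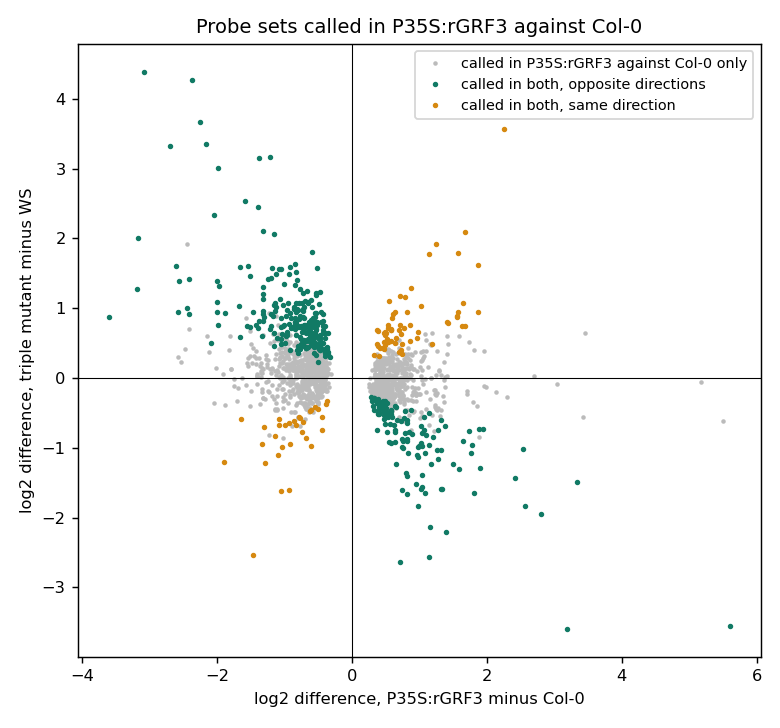
Log2 difference of the triple mutant minus WS (vertical axis) against that of P35S:rGRF3 minus Col-0 (horizontal axis) for probe sets called in P35S:rGRF3 against Col-0. Green points were called in both in opposite directions (142 and 241) and orange points in both in the same direction (65 and 32).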

How the data were processed

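The deposited files give microarray intensity on a linear scale, which the submitters' processing notes credit to MAS5, with no version in the sources used here. The deposited intensity was turned into log2 without an offset and without another normalization. Of 22746 probe sets other than controls, 13648 reached the 40th percentile of mean log2 signal (6.84) and entered the test. limma 3.58.1 (R 4.3.3, with the package data.table at version 1.17.8) estimated the mean of each group from all 15 arrays with a mean-variance trend, and calls needed a two-sided Benjamini-Hochberg adjusted p under 0.05. The script was tested on simulated data. In the platform annotation 13513 probe sets have 1 gene, 503 several and 8730 none, and 13484 were found in the TAIR10.1 gene annotation. Where a gene has more than 1 probe set, the brightest stands for it. Genes named are the 15 per direction with the largest called differences and no overlap, up to 4 called members per list (otherwise the 2 brightest), 6 per direction against both wild types, and 5 per direction against P35S:rGRF1 and opposite to the mutant. Other genes were named after their values were seen. The members and lists were chosen with earlier results of these data known, and the dioxygenase, berberine bridge, C1-domain and DUF26 lists were added after their values were seen. The alternatives were other filters, an offset, other normalizations, other variance models, array weights, the replicate number as a block, a poly-A covariate, a minimum change, a fit of the compared groups alone and leaving out arrays. Promoter motifs were not analysed here.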

Additional observations from a re-analysis of the deposited data

Results flagged for a closer look

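For 10 genes P35S:rGRF3 differed from P35S:rGRF1 in the direct test in limma and from Col-0 in the same direction. The log2 differences, P35S:rGRF3 minus P35S:rGRF1, were 7.81 for NRT2.5, 6.92 for AT4G33720, 3.29 for AT5G11930, 2.96 for AT3G13650 and 2.47 for AT4G22110. They were -2.56 for AT2G34610, -2.29 for AT3G56080, -2.27 for AT2G29340, -2.22 for AT3G45710 and -2.0 for CHI. Where one side lies below the filter level, as for NRT2.5 and AT4G33720 in P35S:rGRF1, the size of the difference is uncertain. AT5G11930, a glutaredoxin-family gene, was no longer called against Col-0 without replicate 2 of P35S:rGRF3 (adjusted p = 0.0545), replicate 2 of Col-0 (0.0518) or replicate 3 of Col-0 (0.05).

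With no filter on dim probe sets, 163 probe sets below the filter level were called in P35S:rGRF3 against Col-0, 94 higher and 69 lower. They include PRX52 (6.03), AT4G12490 (4.31), ICL (4.26) and AT5G43450 (-4.19), and 57 higher and 35 lower probe sets changed at least 4-fold. Of those 57 and 35, the higher group reached the filter level at 29 and 19. At the others both groups were dim, so the sizes are uncertain.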

How the results depend on the processing

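Leaving out 1 array in turn gave 973 to 1793 calls for P35S:rGRF3 against Col-0 (397 to 791 higher, 576 to 1002 lower), 6345 to 6794 against WS (2332 to 2499, 4008 to 4295), 1672 to 2897 against P35S:rGRF1 (741 to 1183, 931 to 1714) and 1158 to 1392 for the mutant against WS (634 to 761, 524 to 682). Overlaps with the mutant ran from 75 to 135 (higher, lower in the mutant), 163 to 253 (lower, higher), 35 to 106 (higher in both) and 16 to 164 (lower in both), and calls against both wild types from 235 to 389 higher and 286 to 548 lower. Without P35S:rGRF3 replicate 3 and Col-0 replicate 1 together there were 1961 calls against Col-0 (824 higher, 1137 lower) and 3442 against P35S:rGRF1 (1402 higher, 2040 lower), 659 lower against both wild types, and 131 and 252 probe sets higher and lower in both line and mutant. With only the groups compared, 621 were called (252 higher, 369 lower), the overlaps were 56, 114, 28 and 21, and 185 and 179 held against both wild types. A minimum change of 1.5-fold left 146 (55 higher, 91 lower) against Col-0, 1607 (796, 811) against WS, 201 (114, 87) against P35S:rGRF1 and 119 (55, 64) in the mutant, overlaps of 3, 10, 1 and 0, and 43 and 21 against both wild types. WS in place of Col-0 gave 7147 calls (2643 higher, 4504 lower). The 60th percentile filter gave 2926 lower against WS, median centring 1802 higher and 1054 lower against P35S:rGRF1, array weights 1385 lower in the mutant and 121 lower in both, and the poly-A covariate 1330 against P35S:rGRF1 (574, 756). At probe sets that differ at least 16-fold between the wild types, 96.8% were nearer to Col-0. The replicate block gave 1549 calls against Col-0 (671 higher, 878 lower). Same-numbered arrays correlated at 0.146, -0.175 and 0.251 in their deviations, and arrays with different numbers at -0.278 to 0.185. So few arrays cannot settle whether the numbers pair them. Over the alternatives, named genes gave 2229 values on the same side of the threshold, 263 with the call lost and 9 with it gained. Among genes called in the main fit, 0 values had the direction reversed. Uncalled genes could change sign and still count as on the same side, as EXPB3 did (-0.08 to 0.23). The causes were not tested. Settings beyond those planned for the comparisons other than that with Col-0 were added after seeing the data. The filter on the mean of all arrays left out 9098 probe sets, among them 90 called with no filter and bright in P35S:rGRF3 or in Col-0. The MAS5 values carry no detection call here, which limits the size of differences against a dim group.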
